A study of Homo sapiens with 7 samples.

Results

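The genes described here encode machinery of vesicle docking, priming and fusion, for insulin granules and, in part, for Golgi, endosome and lysosome membranes. They are 48 genes of 66025 gene IDs in the table, taken from a fixed list of SNARE proteins, synaptotagmins, priming factors, RAB GTPases with their effectors, and granule membrane proteins. RNA was sequenced from β-like cells, differentiated in vitro to stage 6 from H1, an established line of human embryonic stem cells, and sorted by a fluorescent zinc dye (DA-ZP1) because β-cells store insulin with zinc. All 7 libraries came from H1 cells transduced with a lentivirus carrying a doxycycline (Dox)-inducible shRNA and selected with puromycin, and no clone was named. The groups were iKD2 Dox+ (an shRNA against METTL14, with Dox, n = 3: replicates a, b and c), iKD2 Dox- (the same line without Dox, n = 2: replicates b and c) and iSCR Dox+ (a scramble shRNA with Dox, n = 2: replicates a and b). In what follows, values are in the order of these letters. METTL14 is a subunit of the complex that writes N6-methyladenosine on mRNA. The question was which paralogue of each family these cells used most, and whether any member differed when the shRNA had been induced. A single shRNA and a single scramble line represented each arm, so that iKD2 Dox+ against iSCR Dox+ also compared different lines, while iKD2 Dox+ against iKD2 Dox- also compared cells with and without Dox.

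In regulated secretion, a granule is tethered at the plasma membrane by RAB GTPases and their effectors, primed by Munc13, RIM and CAPS proteins, and fused when the granule SNARE (a VAMP) pairs with the plasma membrane SNAREs (a syntaxin and SNAP25 or a relative). Munc18 proteins hold and help assemble syntaxin, complexins clamp and promote the assembled complex, and synaptotagmins bind the calcium that enters when a β-cell is stimulated by glucose. NSF and its adaptor α-SNAP then take the used complexes apart. In β-cells, this sequence releases insulin in a rapid phase from docked granules and in a slower phase from granules that arrive later.

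The libraries held 14875429 to 20639156 estimated counts. Levels are given as CPM (TMM-scaled counts, expressed for libraries of equal size), and levels of different genes are compared only per kb of merged exons. Counts in bulk RNA cannot tell fewer cells of a type from less RNA per cell. METTL14 mRNA did not separate the groups. The iKD2 Dox+ libraries held 18.7, 16.3 and 49.1 CPM of it, the iKD2 Dox- libraries 39.4 and 22.6 CPM, and the iSCR Dox+ libraries 36.1 and 32.2 CPM, so that replicate c of iKD2 Dox+ was the highest of the 7. Of the β-cell list, INS was at 11365 to 22298 CPM in every library, whereas IAPP was at 5.66 to 29.4 CPM and MAFA at 0 to 38.2 CPM. GCG, the glucagon gene, was present at 5039 to 12846 CPM, and bulk RNA cannot tell α-cells in the sorted fraction from cells that express both hormones.

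Several marker lists differed between the groups and are given here because exocytosis genes are also expressed by other endocrine cells and by neurons. The summed level of the 17 β-cell genes was 26211 to 30676 CPM in iKD2 Dox+, below 34912 to 38942 CPM in iKD2 Dox- and 41196 to 41398 CPM in iSCR Dox+. INS and CHGA held most of this sum, and signs within the list were mixed. Against iKD2 Dox-, 13 of the 17 had a log2 fold change below 0 and 4 above. Against iSCR Dox+, 11 were below and 6 above. The 9 genes of α-, δ- and PP-cells summed to 10374 to 14075 CPM in iKD2 Dox+, to 13529 to 17456 CPM in iKD2 Dox- and to 13661 to 16879 CPM in iSCR Dox+. The 12 ductal and acinar genes ran the other way, with 962 to 1080 CPM in iKD2 Dox+ against 527 to 616 CPM and 569 to 744 CPM, and the 8 mesenchymal genes summed to 1489 to 2136 CPM against 1031 to 1101 CPM and 1363 to 1639 CPM. Of the mesenchymal genes, 6 were above 0 and 2 below against iKD2 Dox-, and 7 above and 1 below against iSCR Dox+. VIM ran against the sum, with a mean of 465 CPM in iKD2 Dox+ against 617 and 669 CPM. The 7 enterochromaffin genes (1146 to 1345, 1567 to 1676 and 1141 to 1354 CPM), the 8 neuronal genes (727 to 987, 1016 to 1279 and 803 to 835 CPM) and the 6 proliferation genes (435 to 607, 284 to 291 and 211 to 436 CPM) are given in the same order of groups. No gene of these lists was at 0 in all 7 libraries. The part of these differences in the results below was not tested.

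All 48 members were tested, and they spanned a wide range of levels. On the per-kb scale, 8 members had a mean of at least 30 CPM per kb, 18 lay from 10 to 30, 18 from 1 to 10 and 4 under 1. The highest was SYT7 (chromosome 11, 61515313 to 61581148, minus strand), a synaptotagmin with high calcium affinity, at 85.9 ± 9.6 CPM per kb (SD over the 7 libraries, all groups included). PTPRN2, also called phogrin, a phosphatase-like protein of the granule membrane (chromosome 7, 157539056 to 158587788, minus strand), followed at 81.9 ± 20 CPM per kb, and the ranges of both genes overlapped. SYT13 (55.5), RAB3B (50.3), PTPRN (44.2), CADPS (43.2), RAB11FIP1 (37.6) and SYT11 (34.6 CPM per kb) completed the upper group. The lowest were RAB27A (0.841), RAB27B (0.650), RIMS1 (0.403) and SYT16 (0.315 CPM per kb). Coordinates are those of GENCODE release 29 on GRCh38.

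**Figure D1:**
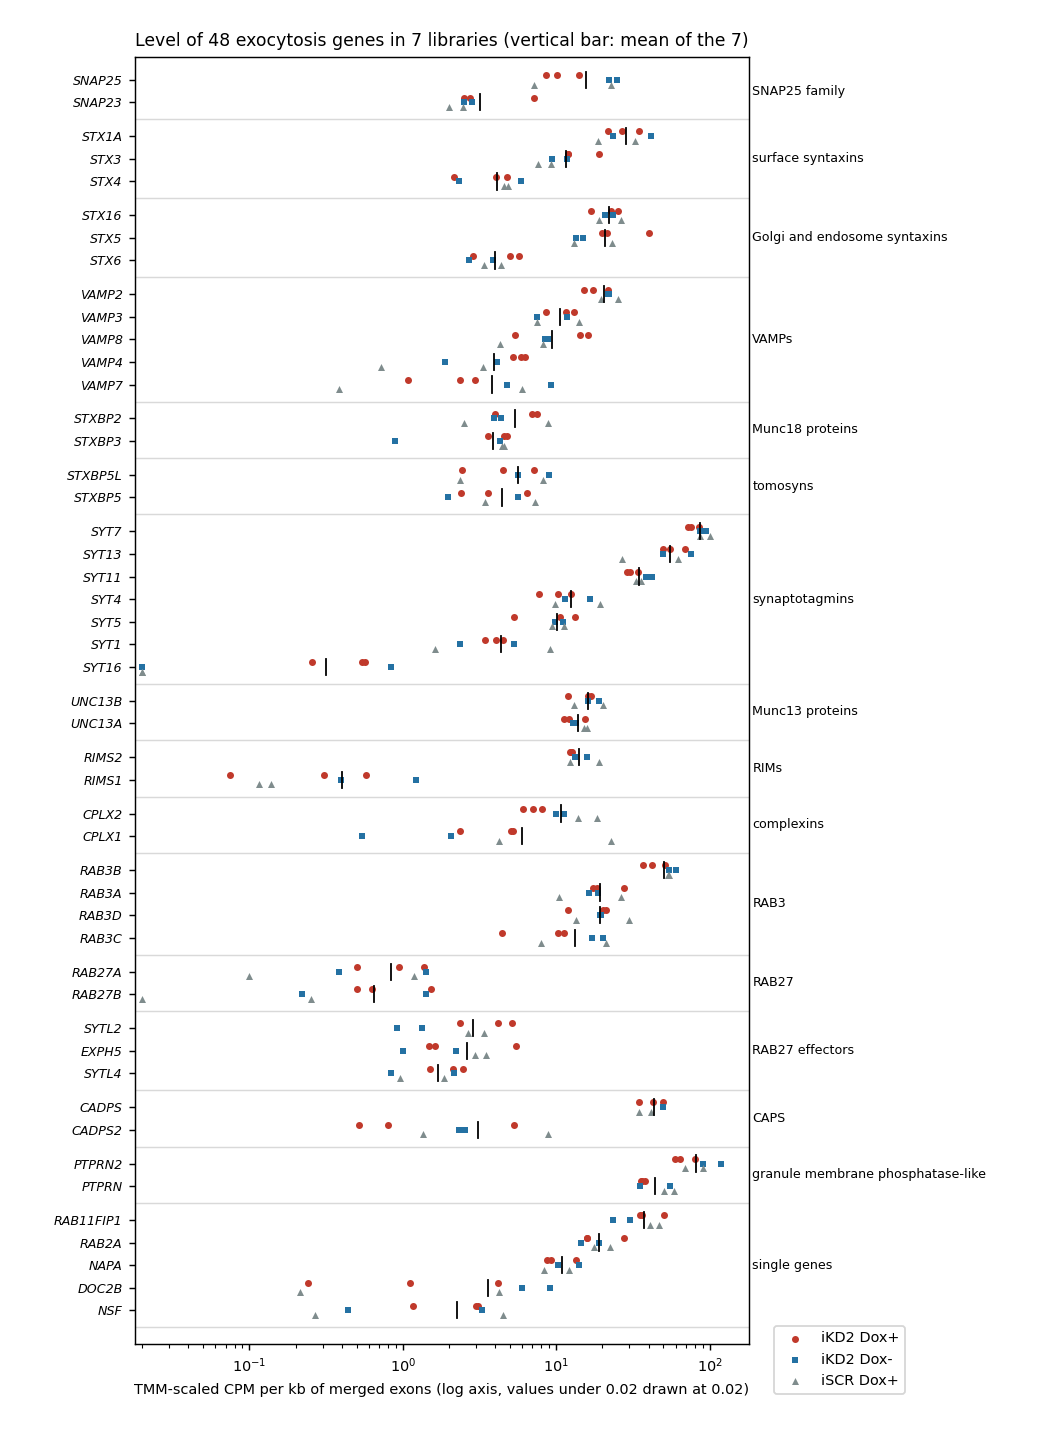
Level of each of the 48 members in each library, as TMM-scaled CPM per kb of merged exons on a log axis, with families grouped from top to bottom; points are libraries (red circles iKD2 Dox+, blue squares iKD2 Dox-, grey triangles iSCR Dox+), and vertical bars are the mean of the 7. SYT7 and PTPRN2 stand at the right, while SYT16, RIMS1 and the RAB27 genes lie to the left with widely scattered libraries.

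Among the plasma membrane SNAREs, SNAP25 exceeded its ubiquitous relative SNAP23 in 7 of 7 libraries. SNAP25 was at 15.7 ± 7.5 CPM per kb and SNAP23 at 3.17 ± 1.8 (SD, n = 7), a mean log2 ratio of 2.28 ± 0.89. SNAP25 made up 66.4 to 90.9% of the summed level of both. The related SNAP29, which works on internal membranes and is not a member of the list, was at 13.1 CPM per kb and exceeded SNAP25 in 3 of 7 libraries. STX1A, the syntaxin of regulated exocytosis, was the first of the surface syntaxins at 28.4 ± 8.0 CPM per kb. STX3, which serves apical membranes and granule-to-granule fusion, reached 11.6 ± 3.7, and STX4, a syntaxin of surface membranes in many tissues, 4.08 ± 1.4 CPM per kb. STX1A was above STX3 in 7 of 7 libraries, by 1.31 ± 0.63 on the log2 scale, although the lowest ratio was 1.15-fold.

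The syntaxins of internal membranes did not have a single leader. STX16 of the trans-Golgi network was at 16.9 to 26.6 and STX5 of the Golgi at 13.1 to 39.9 CPM per kb, STX16 being higher in 5 of 7 libraries, and STX6 was at 3.98 ± 1.1. STX16 shares exons with a readthrough gene, STX16-NPEPL1, and its counts were not whole in 6 of 7 libraries, so that its level is uncertain. Of the granule and endosome VAMPs, VAMP2, the granule SNARE of insulin release, led at 20.4 ± 3.4 CPM per kb. It exceeded VAMP3, its relative of recycling endosomes (10.6 ± 2.7 CPM per kb), in 7 of 7 libraries, by 0.97 ± 0.58 on the log2 scale. VAMP2 counts were also not whole in 6 of 7 libraries, with an overlapping gene on the same strand, so that its level is uncertain too. VAMP8, of late endosomes and secretory granules, was at 9.39 ± 4.4, and the endosomal VAMP4 and the lysosomal VAMP7 at 3.91 ± 2.1 and 3.83 ± 3.1 CPM per kb. VAMP7 was the least even of these, from 1.02 CPM in iSCR Dox+ a to 24.8 CPM in iKD2 Dox- c.

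The listed regulators of syntaxin were at low and similar levels. STXBP2 and STXBP3, Munc18 proteins of many tissues, were at 5.42 ± 2.3 and 3.88 ± 1.4 CPM per kb, STXBP2 being the higher in 6 of 7 libraries. The tomosyns STXBP5L and STXBP5, which hold back SNARE assembly, were at 5.61 ± 2.7 and 4.41 ± 2.1 CPM per kb and changed places between libraries, with STXBP5L the higher in 5 of 7.

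The 7 listed synaptotagmins differed widely. SYT7 exceeded SYT13, a family member that does not bind calcium, in 7 of 7 libraries, but by as little as 1.04-fold in iKD2 Dox+ a and by up to 3.74-fold in iSCR Dox+ b, where SYT13 was lowest. SYT7 made up 37.0 to 52.0% of the summed level of the 7 genes. SYT11, which also lacks calcium binding, was even across libraries (28.8 to 41.8 CPM per kb). SYT4 was at 12.5 ± 4.1 and SYT5 at 10.1 ± 2.5 CPM per kb. SYT1, the fast calcium sensor of synapses, was at 4.35 ± 2.5, ranging from 10.5 CPM in iSCR Dox+ b to 59.5 CPM in iSCR Dox+ a. SYT16 was found in 4 libraries and was at 0 counts in iKD2 Dox- c and both iSCR Dox+ libraries. Of 10 further synaptotagmins outside the list, none exceeded SYT7 in any library, and the highest was SYT17 at 3.04 CPM per kb. DOC2B, a related calcium sensor with paired C2 domains, ranged from 1.38 CPM in iSCR Dox+ a to 58.5 CPM in iKD2 Dox- b.

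Among the priming factors, the Munc13 proteins UNC13B and UNC13A, which open syntaxin, were close to each other at 16.2 ± 3.0 and 13.8 ± 1.8 CPM per kb, UNC13B being higher in 5 of 7 libraries. Of the listed RIM and CAPS genes, in contrast, a single one made up most of each pair. RIMS2, a scaffold that ties RAB3 to the release site, was at 14.0 ± 2.6 CPM per kb and RIMS1 at 0.403 ± 0.40, so that RIMS2 made up 92.9 to 99.4% of their sum. RIMS4, a short RIM outside the list, was at 7.68 CPM per kb (1.57 to 14.3) and above RIMS2 in 1 of 7 libraries, and RIMS3, also outside it, was at 2.62 CPM per kb. CADPS (CAPS1) was at 43.2 ± 6.7 and CADPS2 at 3.10 ± 3.0 CPM per kb, and CADPS made up 79.8 to 99.0%. Both leaders held in 7 of 7 libraries. CPLX2 was above CPLX1 in 6 of 7 libraries, at 10.7 ± 4.3 against 6.02 ± 7.5 CPM per kb. The exception was iSCR Dox+ a, with 54.8 CPM of CPLX1, while the other 6 libraries had 1.31 to 12.7 CPM.

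RAB3B (chromosome 1, 51907956 to 51990764, minus strand) was the leading RAB3, the GTPases of secretory granules, at 50.3 ± 8.1 CPM per kb, and exceeded each of the others in the mean. RAB3D and RAB3A were both at 19.3 CPM per kb and RAB3C at 13.2 ± 6.4. RAB3B exceeded RAB3D in 7 of 7 libraries, by 1.42 ± 0.40 on the log2 scale. The RAB27 pair, which recruits granules to the cell cortex, was near the limit of measurement, with 8 to 145 counts of RAB27A and 0 to 215 of RAB27B per library, and no order could be given, since RAB27A was the higher in 4 of 7. Their listed effectors SYTL2, EXPH5 and SYTL4 (granuphilin, which docks insulin granules) were at 2.86 ± 1.5, 2.60 ± 1.5 and 1.70 ± 0.62 CPM per kb, with SYTL2 above EXPH5 in 4 of 7 libraries. SYTL1, outside the list, was at 6.87 CPM per kb and above SYTL2 in 6 of 7.

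The granule membrane pair was led by PTPRN2 over PTPRN, also called IA-2, in 7 of 7 libraries, by 0.88 ± 0.33 on the log2 scale. Of the single genes, RAB11FIP1, an effector of recycling-endosome RABs, was at 37.6 ± 9.3, RAB2A of the secretory pathway at 19.0 ± 4.6, NAPA (α-SNAP) at 10.9 ± 2.3 and NSF at 2.25 ± 1.6 CPM per kb. NSF, RAB3B and RAB27A were the 3 members whose counts were not whole in any of the 7 libraries, as happens where a read fits several genes, and NSF ranged from 1.34 CPM in iSCR Dox+ a to 22.4 CPM in iSCR Dox+ b. In all, the first gene was above the second in every library in 8 of 15 families and in 4 to 6 of the 7 libraries in the other 7. The choice of gene length mattered: with the median transcript length in place of merged exons, the same gene led in 11 of 15 families, and SNAP23, STXBP5, RAB3C and PTPRN took the first place in theirs.

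**Figure D2:**
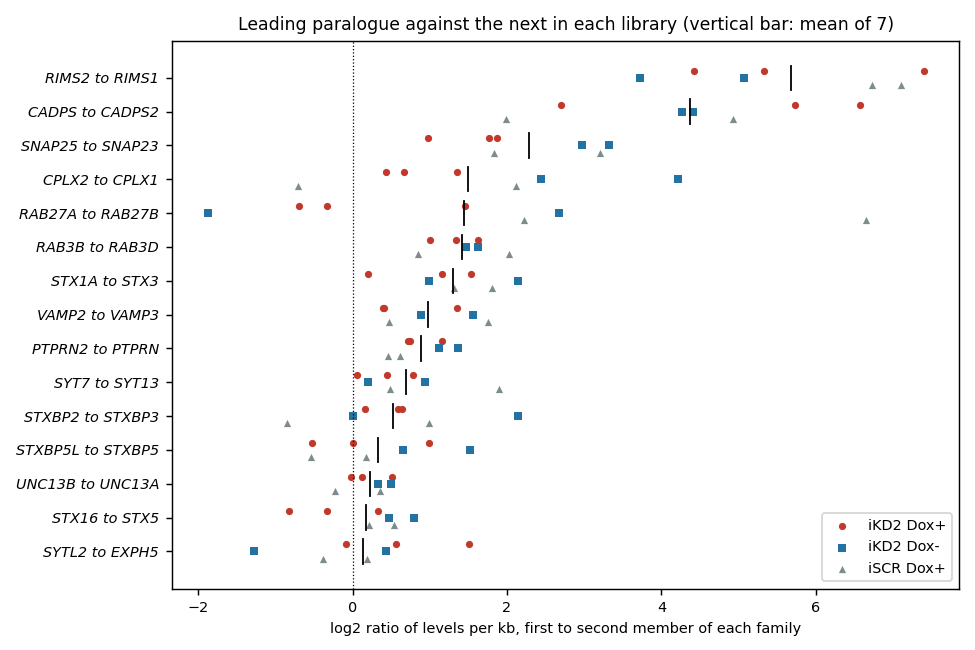
Log2 ratio of the level per kb of the first to the second member of each of the 15 families in each library; points are libraries (red circles iKD2 Dox+, blue squares iKD2 Dox-, grey triangles iSCR Dox+), bars the mean of the 7, and the dotted line marks equal levels. RIMS2 and CADPS stand far to the right, and the lower families have libraries on both sides of the line.

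The induced shRNA was first compared with the same line without Dox. No member passed an adjusted p of 0.05 in edgeR's quasi-likelihood test, against 9 of 22926 genes tested (0.0393% of all genes), and 6 of 48 had an unadjusted p under 0.05 (12.5%, against 3.72% of all genes). DESeq2 and limma voom also called 0 members, where they called 1.64% and 0.0349% of all genes that had an adjusted p. By the criterion of the study (a change over 1.5-fold whose unadjusted p is under 0.05), 3 members were lower (1.59% of all genes were) and 2 were higher (1.96% of all genes). The lower ones were SNAP25, RAB3C and PTPRN2, and the higher ones SYTL2 and RAB11FIP1. All 5 had an adjusted p of 1.

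SNAP25 (chromosome 20, 10218830 to 10307418, plus strand) was at 47.3, 28.8 and 33.8 CPM in iKD2 Dox+, at 74.0 and 83.7 CPM in iKD2 Dox-, and at 24.0 and 76.8 CPM in iSCR Dox+. The induced libraries lay below both libraries without Dox, but the scramble libraries spanned nearly the whole range. The log2 fold change against iKD2 Dox- was -1.11 ± 0.48 (SE, edgeR adjusted p = 1), and against iSCR Dox+ it was -0.46 ± 0.48 (adjusted p = 0.871). RAB3C, a RAB3 of neurons and endocrine cells, was at 42.5, 108 and 99.1 CPM in iKD2 Dox+, at 195 and 166 CPM in iKD2 Dox-, and at 77.4 and 203 CPM in iSCR Dox+. Again only the libraries without Dox were clear of the induced ones, with a log2 fold change of -1.12 ± 0.41 (adjusted p = 1) against them and of -0.75 ± 0.41 (adjusted p = 0.699) against the scramble line. With either scramble library left out of the fit, RAB3C passed an adjusted p of 0.05 against iKD2 Dox-, although both groups of that comparison stayed whole. The share of all genes past that threshold rose at the same time from 0.0393% to 0.361% without replicate a and to 0.416% without replicate b.

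PTPRN2 was at 309, 389 and 289 CPM in iKD2 Dox+, at 574 and 439 CPM in iKD2 Dox-, and at 334 and 436 CPM in iSCR Dox+. Its log2 fold change was -0.62 ± 0.21 against iKD2 Dox- (adjusted p = 1) and -0.23 ± 0.22 against iSCR Dox+ (adjusted p = 0.838), and replicate b of iKD2 Dox+ lay above replicate a of iSCR Dox+. SYTL2, which binds RAB27 and plasma membrane phospholipids, was at 58.3, 26.7 and 47.3 CPM in iKD2 Dox+ against 15.1 and 10.3 CPM in iKD2 Dox-, with a log2 fold change of 1.79 ± 0.62 (adjusted p = 1). The scramble libraries, at 30.1 and 37.8 CPM, lay within the induced range (0.38 ± 0.58, adjusted p = 0.938). RAB11FIP1 showed the same order, with 481, 336 and 348 CPM in iKD2 Dox+, 225 and 292 CPM in iKD2 Dox-, and 391 and 452 CPM in iSCR Dox+. Its log2 fold change was 0.59 ± 0.23 against iKD2 Dox- (adjusted p = 1) and -0.12 ± 0.22 against iSCR Dox+ (adjusted p = 0.952), the first of which was at the 1.5-fold limit.

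None of these 5 calls held in each of the 5 fits that left out a library of either group. RAB3C met the criterion in 4 of them (not without iKD2 Dox+ a) and SYTL2 in 4 (not without iKD2 Dox- c). RAB11FIP1 met it in 3 (not without iKD2 Dox+ a or iKD2 Dox- b) and PTPRN2 in 2 (not without iKD2 Dox+ a, iKD2 Dox+ c or iKD2 Dox- b). SNAP25 met it in 1, the fit without iKD2 Dox+ a. The count of members fell from 5 to 2 without iKD2 Dox- b (2.56% of all genes), to 3 without iKD2 Dox+ a (2.61%) and to 3 without iKD2 Dox+ c (2.96%).

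Against the scramble line, no member passed an adjusted p of 0.05 (0.0262% of all genes did), and 3 of 48 (6.25%) had an unadjusted p under 0.05, where 6.72% of all genes had. By the criterion of the study, CPLX2 was lower and SYT16 was higher, beside 2.64% and 3.87% of all genes. At an adjusted p of 0.05 limma voom called 0 members (0.0174% of all genes), and DESeq2 called 2 of 48 (4.17%), the same CPLX2 and SYT16, where it called 3.59% of all genes. CPLX2 (chromosome 5, 175796310 to 175884020, plus strand), a complexin of endocrine and neuronal cells, was at 50.1, 57.2 and 42.8 CPM in iKD2 Dox+, at 79.9 and 71.1 CPM in iKD2 Dox-, and at 98.9 and 130 CPM in iSCR Dox+. The 3 groups did not overlap. The log2 fold change was -1.19 ± 0.35 against iSCR Dox+ (adjusted p = 0.459), 2.29-fold lower, and -0.59 ± 0.35 against iKD2 Dox- (adjusted p = 1). Between iKD2 Dox- and iSCR Dox+ the log2 fold change was -0.60 ± 0.39 (adjusted p = 0.826).

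SYT16 was at 8.20, 8.67 and 3.89 CPM in iKD2 Dox+ and at 12.8 and 0 CPM in iKD2 Dox-. With both scramble libraries at 0, the level of iKD2 Dox+ was at least 34.1-fold higher than the 0.203 CPM that 3 counts in a scramble library stand for (adjusted p = 0.678). This covers counting error only. Within the iKD2 line, the libraries without Dox held both the highest value and a 0. PTPRN had an unadjusted p under 0.05 but a change below 1.5-fold. The gene was at 315, 296 and 300 CPM in iKD2 Dox+, at 453 and 292 CPM in iKD2 Dox-, and at 414 and 485 CPM in iSCR Dox+, with a log2 fold change of -0.57 ± 0.22 against the scramble line (adjusted p = 0.678).

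The members that met the criterion were others in each comparison, and the induced libraries are shared by both. Leaving out iSCR Dox+ b raised the count against the scramble line from 2 to 9 members (11.1% of all genes met the criterion in that fit), leaving out iSCR Dox+ a raised it to 6 (7.48%), and leaving out iKD2 Dox+ a raised it to 5 (5.64%), with CPLX2 and SYT16 among them each time. Within a group, the highest library exceeded the lowest by more than 2-fold in 18 of 48 members in iSCR Dox+, in 18 in iKD2 Dox+ and in 13 in iKD2 Dox-. This ratio tends to be larger among 3 libraries (iKD2 Dox+) than among 2 (the other groups). The share of all genes with such a spread was not computed.

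The uninduced line and the scramble line, neither of which had METTL14 knockdown by design, differed in a like number of members. No member passed an adjusted p of 0.05 (0.0131% of all genes did), 4 of 48 (8.33%) had an unadjusted p under 0.05, beside 4.45% of all genes, and all 4 met the criterion. DESeq2 called 1 member of 48 (2.08%), SYT16, beside 1.79% of all genes, and limma voom 0 (0.00872% of all genes). SYT16 was higher in iKD2 Dox- (2.63% of all genes were), and CPLX1, SYTL2 and RAB11FIP1 were lower (1.75% of all genes). Of the iKD2 Dox- libraries only replicate b held SYT16 (12.8 CPM), and without that library SYT16 no longer met the criterion. CPLX1 was at 12.7, 12.3 and 5.72 CPM in iKD2 Dox+, at 5.02 and 1.31 CPM in iKD2 Dox-, and at 54.8 and 10.2 CPM in iSCR Dox+. Its log2 fold change was -3.36 ± 1.22 (adjusted p = 0.826), and -1.68 without iSCR Dox+ a. CPLX1 met the criterion in 2 of the 4 fits that left out a library of either group (not without iKD2 Dox- c or iSCR Dox+ a). SYTL2 and RAB11FIP1 had log2 fold changes of -1.42 ± 0.65 (adjusted p = 0.826) and -0.70 ± 0.24 (adjusted p = 0.826), and for both genes the libraries without Dox were the 2 lowest of the 7. The SYTL2 difference met the criterion in 1 of the 4 fits that left out a library of either group (the one without iSCR Dox+ a), and it was also lost with limma voom, in the fit of 2 groups and without iKD2 Dox+ c. RAB11FIP1 met it in 3 of 4, not without iKD2 Dox- b. Without iSCR Dox+ b the count of 4 members became 11, beside 9.33% of all genes. Over all 3 groups in a single edgeR test, 7 members had an unadjusted p under 0.05 (14.6%, against 4.87% of all genes) and 0 an adjusted p under 0.05 (0.048% of all genes). At that adjusted p, limma voom (0.0305% of all genes) and DESeq2 (1.06% of genes with an adjusted p) also called 0 members. The 7 with an unadjusted p under 0.05 in edgeR were CPLX1, CPLX2, PTPRN2, RAB11FIP1, RAB3C, SYT16 and SYTL2.

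**Figure D3:**
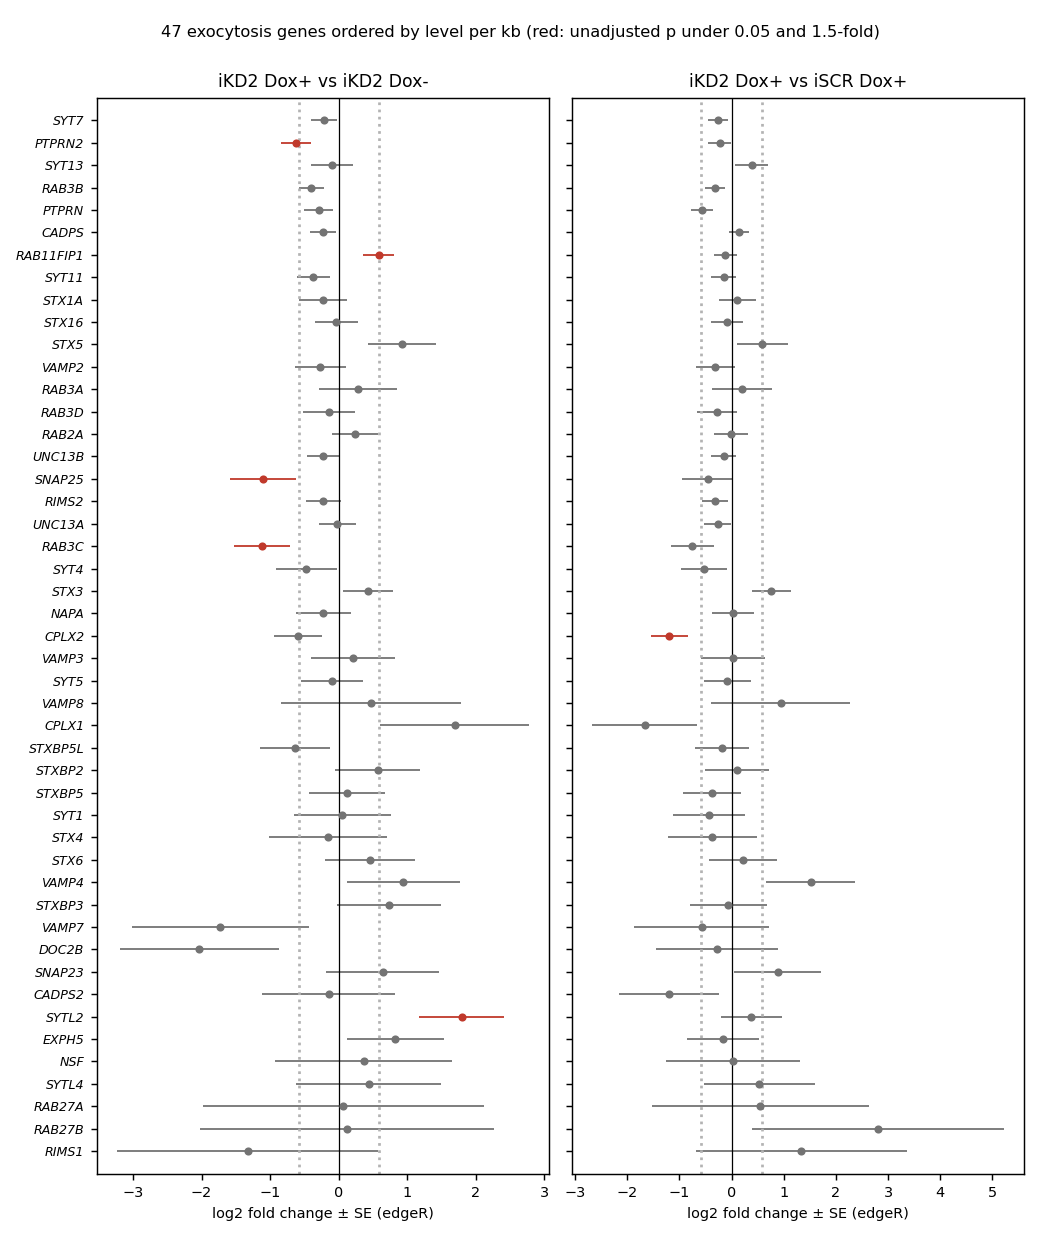
Log2 fold change with its standard error from edgeR for 47 members, ordered by level per kb from top to bottom, in iKD2 Dox+ against iKD2 Dox- (left) and against iSCR Dox+ (right); dotted lines mark 1.5-fold, and red marks genes with an unadjusted p under 0.05 beyond it. SYT16, whose scramble libraries were both at 0, is not drawn, and errors widen toward the low genes at the bottom.

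Members whose 3 induced libraries lay beyond all 4 control libraries were counted next. Lower were CPLX2, RAB3B and SYT7 (3 of 48, 6.25%, against 2.83% of all genes), and higher were STX3 and VAMP4 (2 of 48, 4.17%, against 3.46% of all genes). RAB3B was at 469, 655 and 545 CPM in iKD2 Dox+, at 770 and 699 CPM in iKD2 Dox-, and at 698 and 688 CPM in iSCR Dox+. The control libraries lay close together, and the log2 fold change was -0.40 ± 0.18 against iKD2 Dox- (adjusted p = 1) and -0.32 ± 0.18 against iSCR Dox+ (adjusted p = 0.699). SYT7 was at 432, 450 and 508 CPM in iKD2 Dox+, at 562 and 515 CPM in iKD2 Dox-, and at 518 and 595 CPM in iSCR Dox+. The highest induced library lay just below the lowest control, and the log2 fold changes were -0.22 ± 0.19 (adjusted p = 1) and -0.26 ± 0.19 (adjusted p = 0.719).

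STX3 was at 78.4, 125 and 78.0 CPM in iKD2 Dox+, at 61.7 and 77.7 CPM in iKD2 Dox-, and at 49.7 and 60.8 CPM in iSCR Dox+. Its lowest induced library was barely above its highest control, and the log2 fold change was 0.43 ± 0.37 against iKD2 Dox- (adjusted p = 1) and 0.76 ± 0.37 against iSCR Dox+ (adjusted p = 0.699). VAMP4 was at 27.1, 30.3 and 32.1 CPM in iKD2 Dox+, at 21.2 and 9.75 CPM in iKD2 Dox-, and at 3.72 and 17.1 CPM in iSCR Dox+. The induced libraries were alike and the controls uneven, with log2 fold changes of 0.94 ± 0.83 (adjusted p = 1) and 1.52 ± 0.85 (adjusted p = 0.699).

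**Figure D4:**
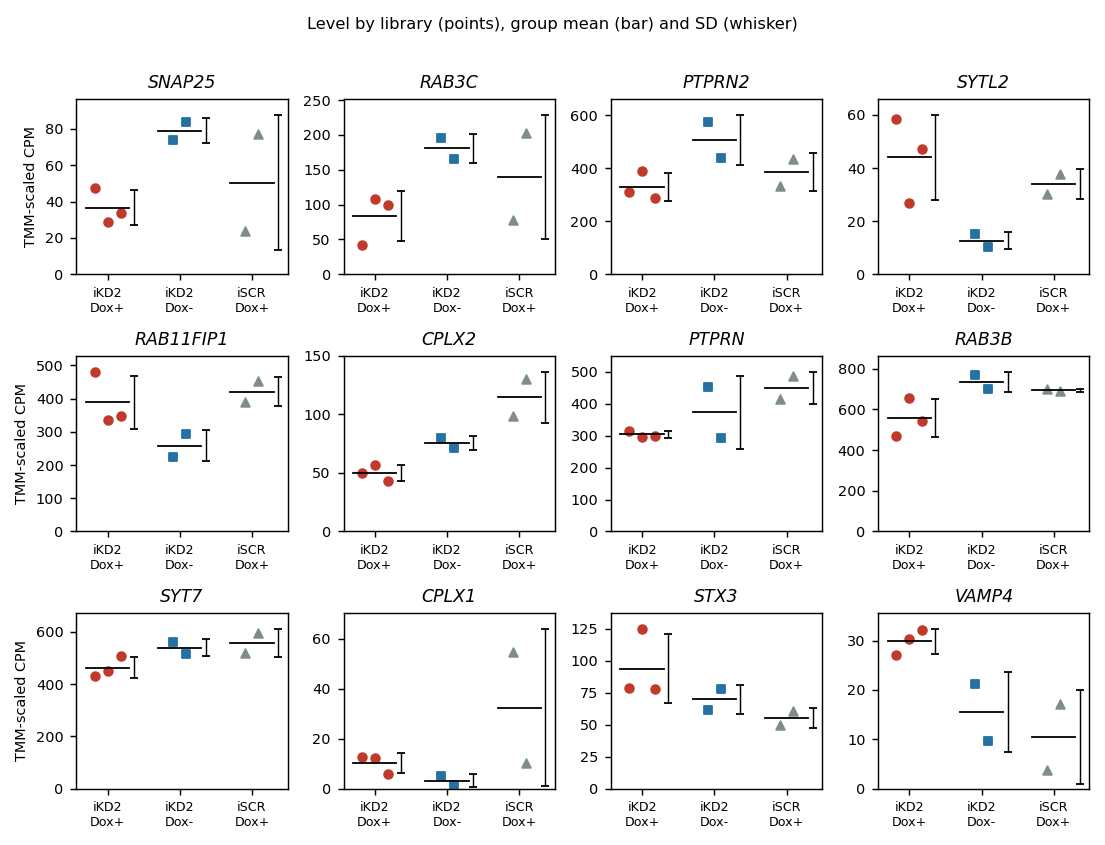
TMM-scaled CPM of 12 members in each library (points), with the group mean (horizontal bar) and SD (whisker), each axis starting at 0. SNAP25, RAB3C and PTPRN2 are low in iKD2 Dox+ beside iKD2 Dox- but overlap the scramble libraries, while CPLX2, RAB3B and SYT7 are below all 4 controls.

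Over the whole list, the median log2 fold change of the 48 members was -0.07 against iKD2 Dox- (0.01 over all genes tested) and -0.10 against iSCR Dox+ (0.08 over all genes). Signs were mixed: 26 members were below 0 and 22 above against iKD2 Dox-, and 28 below and 20 above against iSCR Dox+. Members with a mean of at least 50 CPM over the 7 libraries, a limit set after the values were seen, leaned to one side. Of these 24 genes, 21 were below 0 against iKD2 Dox- (87.5%, beside 48.9% of the 4276 genes at that level), with a median of -0.23 beside 0.01. Against iSCR Dox+, 19 of 24 were below 0 (79.2%, beside 51.2%), with a median of -0.20 beside -0.01. Between iKD2 Dox- and iSCR Dox+, 11 of 24 were below 0 and the median was 0.04. Both comparisons with iKD2 Dox+ share the induced libraries, and genes measured in the same libraries are not independent. The exceptions against iKD2 Dox- were STX3, RAB2A and RAB11FIP1, and against iSCR Dox+ they were STX1A, STX3, SYT13, CADPS and NAPA. Members under the 50 CPM limit leaned the other way. Of the 22 members above 0 against iKD2 Dox-, only 3 were among the 24, and of the 20 against iSCR Dox+, only 5. The 48 members summed to 5053, 5430 and 5105 CPM in iKD2 Dox+, to 6090 and 5791 CPM in iKD2 Dox-, and to 5399 and 6159 CPM in iSCR Dox+, so that iKD2 Dox+ b lay above iSCR Dox+ a. CHGA, a granule matrix protein of endocrine cells at large, had 12446 to 14419 CPM in iKD2 Dox+ and 15738 to 17941 CPM in the 4 controls. Per 1000 CPM of CHGA the members summed to 377 to 408 CPM in iKD2 Dox+ and to 333 to 364 CPM in the controls. The summed ductal and β-cell lists, given above, also separated iKD2 Dox+ from both control groups, and their part in this pattern was not tested.

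A second list of 92 genes of the pathway (the exocyst, further SNAREs, synaptotagmins, active zone and granule proteins) was examined in the same fits, with 91 tested. Against iKD2 Dox-, 2 met the criterion as higher (2.2%, against 1.96% of all genes), the exocyst subunit EXOC3 (log2 fold change 1.01 ± 0.44, adjusted p = 1) and the active zone protein PPFIA1, also called liprin-α1 (0.90 ± 0.38, adjusted p = 1). SYT12 met it as lower (1.1%, against 1.59% of all genes) and was at 0 in the 3 induced libraries. Against iSCR Dox+, 5 met it as lower (5.49%, against 2.64% of all genes) and 0 as higher (3.87% of all genes). SYP, the vesicle membrane protein synaptophysin, was at 56.7, 115 and 73.9 CPM in iKD2 Dox+ against 110 and 205 CPM in iSCR Dox+ (-0.94 ± 0.35, adjusted p = 0.655), although iKD2 Dox+ b exceeded iSCR Dox+ a. NAPB, or β-SNAP, the relative of α-SNAP, was at 13.5, 26.3 and 20.4 CPM against 51.8 and 54.5 CPM (-1.40 ± 0.57, adjusted p = 0.699). The exocyst subunit EXOC7 (-0.69 ± 0.30, adjusted p = 0.699), the Munc13 protein UNC13D and SYT12 were the others, both of the last at under 30 CPM in every library. Between iKD2 Dox- and iSCR Dox+, RIMS4 (1.70 ± 0.66, adjusted p = 0.826) and the granule protein SV2A (1.05 ± 0.49, adjusted p = 0.826) were higher (2.2%, against 2.63% of all genes). None of the 91 passed an adjusted p of 0.05 in edgeR, beside at most 0.048% of all genes.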

How the data were processed

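RNA of sorted H1 β-like cells was sequenced as paired-end reads from stranded total-RNA libraries. Per the study's methods, adapters were trimmed, Kallisto assigned reads to transcripts and tximport summed them per gene. The deposited table holds estimated counts, neither scaled for depth nor for length, and versions, genome build and strand setting were not given in the sources used here, so that genes overlapping on the opposite strand are uncertain (30 of 48 members). Replicates were separate samples by their labels, and p-values measure only the spread between them.

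After rounding, filterByExpr kept 22926 genes. They were scaled with TMM factors and fitted in R 4.3.3 by the robust quasi-likelihood method of edgeR 4.0.16, all 3 groups together, with Benjamini-Hochberg adjustment over these genes. A standard error was taken as the size of the log2 fold change over the square root of F. The fit was checked on simulated data. Levels are CPM with the same factors, per kb of merged GENCODE 29 exons between genes. Shares and ratios of family members describe the libraries and were not tested. The floor of 3 counts covers counting error only.

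Every listed gene was accounted for. Values are given in full for the first and second gene of each family, for members past a threshold and for members beyond all 4 controls. Genes of the second list are named if they met the unadjusted criterion. The members and lists were chosen with earlier results of these data known. Alternatives were other scaling, filters, tools (DESeq2 1.42.0, limma 3.58.1), gene lengths, a fit of 2 groups, a replicate block and each library left out. A block over all 3 groups was added after the data were seen. No library was left out of the main results.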

Additional observations from a re-analysis of the deposited data

How the results depend on the processing

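With median-ratio or upper-quartile factors, without a filter or with another test, 0 members passed an adjusted p of 0.05, except with DESeq2. It called 2 against iSCR Dox+ (3.59% of all genes) and 1 between iKD2 Dox- and iSCR Dox+ (1.79% of all genes). With each library left out, the count ranged from 0 to 1 in iKD2 Dox+ against iKD2 Dox-, from 0 to 2 against iSCR Dox+, from 0 to 2 between the control groups and from 0 to 3 over all groups. By the criterion of the study, the counts ranged from 2 to 7, from 2 to 9 and from 2 to 11 in the same order of comparisons. In each comparison the highest count came from a fit without a scramble library, which left 1 in that group. The share of all genes called was also highest in such a fit. With an iKD2 Dox+ library left out, all groups kept at least 2. The criterion was then met by 3 to 5, 2 to 5 and 3 to 4 members. The shares of all genes were 2.61% to 3.09%, 5.12% to 5.64% and 3.83% to 4.73%. A filter at a mean of 5 CPM left 1 member against iSCR Dox+ (6.75% of all genes). Between the control groups, limma voom left 2 (5.81%) and a fit of only 2 groups also 2 (4.61%). The cause was not tested.

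The replicate letters were shared by 2 libraries of each group at most, and over 4276 genes no same-letter pair had a correlation of deviations over 0.1 (-0.014 to 0.0685), so that the letters were not taken to pair the samples. Over the members among these genes, 4 of 5 same-letter pairs were positive (0.183 to 0.546) and the pair of letter c was at -0.49. In a group of 2 libraries the deviations are equal and opposite. The 5 pairs are therefore not independent, and their signs cannot decide whether letters pair the samples. With a replicate block on the shared letters, 5 members met the criterion against iKD2 Dox-, beside 4.57% of all genes. RAB3C, SNAP25 and SYTL2 were among the 5 without it (PTPRN2 and RAB11FIP1 were lost, DOC2B and STX5 added). Against iSCR Dox+ 3 met it, beside 3.98% of all genes (CPLX2 kept, SYT16 lost, RAB3C and SYT13 added). With a block over all 3 groups the counts were 4 (RAB3C and SYTL2 kept), 3 (CPLX2 and SYT16 kept) and, between the control groups, 3 (RAB11FIP1 kept, CPLX1, SYTL2 and SYT16 lost). The shares of all genes were 2.36%, 5.19% and 3.14% in the same order. No member passed an adjusted p of 0.05 with either block, beside at most 0.266% of all genes.

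Leading genes were the same in 15 of 15 families without length or without TMM factors, in 14 with the longest transcript, in 11 with the median transcript and in 14 to 15 with a library left out. The log2 ratio turned to -0.31 for SNAP25 to SNAP23, to -0.11 for STXBP5L to STXBP5 and to -2.90 for PTPRN2 to PTPRN with the median transcript, to -0.12 for STX16 to STX5 with the longest one, and, with each library left out, ranged from -0.0947 to 0.37 for SYTL2 to EXPH5, below 0 without iKD2 Dox+ c. Of the log2 fold changes of members that met the criterion, none changed sign in the alternatives that fitted the gene. The common coefficient of variation between replicates was 1.14.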
